A study of Mus musculus with 34 samples.

Results

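The immediate early transcription factors examined here are Egr1, Egr2, Nr4a1, Fos, Fosb, Junb and Jun. Each was followed by the probe sets that the platform annotation assigns to its symbol alone. This gave 10 probe sets for the 7 genes, among 12422 probe sets and 8251 named genes on the array. Egr1, Fos and Junb each had a pair of probe sets, and the main value is that of the probe set with the highest mean over all 34 arrays. The arrays were Affymetrix oligonucleotide arrays, each hybridised with RNA from the neocortex or the hippocampus of a male mouse. Mice were injected intraperitoneally on postnatal day 23 with saline, kainate at 15 mg/kg or nicotine at 10 mg/kg, 3 times with 2 h between injections, and the survivors were killed on postnatal day 30. Kainate activates ionotropic glutamate receptors and causes seizures, and nicotine activates nicotinic acetylcholine receptors. In either region 6 arrays came from saline, 5 from kainate and 6 from nicotine mice, all labelled as biological replicates. No strain or genotype is given in the labels, and mice that died before postnatal day 30 are not represented.

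Immediate early genes are transcribed within minutes of a strong synaptic or growth factor signal, through transcription factors such as CREB and SRF that are already present in the cell. Their mRNAs are unstable, so their level in a resting brain is used as a readout of recent neuronal activity. Egr1 and Egr2 encode zinc-finger factors that bind GC-rich sites. Nr4a1 encodes an orphan nuclear receptor. Fos and Fosb encode leucine-zipper proteins that pair with Jun-family proteins, such as those encoded by Jun and Junb, to form the AP-1 complex. Kainate seizures are a standard way to induce these genes acutely. The samples here were taken on postnatal day 30, so they hold the late state and not the acute response.

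The proximal promoters are shown because elements through which synaptic signals reach such genes can lie there. Several members moved together between arrays, as described below, and whether promoter elements have a part in that was not tested. RefSeq promoter entries (GRCm38.p6, from 250 bases before to 50 bases after a start site) were searched for 6 members, and Egr2 had 5 start sites. No Egr1 entry was used in this search of members, so the matches below say nothing about the Egr1 promoter. Capitals mark matches on either strand to the CRE core (TGACG, part of the CREB site), an EGR site (GCGTGGGCG or GCGGGGGCG) or the CArG box bound by SRF. The start sites of Nr4a1 and Fosb and start site 3 of Egr2 lie inside the annotated genes. The 120 bases before the start are given for Nr4a1, Fos, Junb and Jun, and 30 bases around the matches for Egr2 (start site 3, shown for its CArG box) and Fosb.
Fos (chr12:85473770-85473889, plus strand): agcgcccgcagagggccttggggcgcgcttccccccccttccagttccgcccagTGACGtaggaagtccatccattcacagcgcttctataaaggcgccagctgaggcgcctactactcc
Nr4a1 (chr15:101266726-101266845, plus strand): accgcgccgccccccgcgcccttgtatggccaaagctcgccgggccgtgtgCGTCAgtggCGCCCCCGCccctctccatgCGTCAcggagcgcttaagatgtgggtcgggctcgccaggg
Junb (chr8:84978749-84978868, minus strand): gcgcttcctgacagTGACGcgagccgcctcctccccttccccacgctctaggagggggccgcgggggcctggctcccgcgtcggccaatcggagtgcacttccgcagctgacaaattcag
Jun (chr4:95052223-95052342, minus strand): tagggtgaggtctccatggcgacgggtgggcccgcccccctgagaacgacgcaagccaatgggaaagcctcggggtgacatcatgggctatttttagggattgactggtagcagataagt
Egr2 (chr10:67537794-67537823, plus strand): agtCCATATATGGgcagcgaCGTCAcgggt
Fosb (chr7:19310082-19310111, minus strand): tgcgggTGACGcaagcGCGGGGGCGggtcc
A CRE core was present for Egr2, Nr4a1, Fos, Fosb and Junb, and in 20.8% of all 32851 promoter entries. The EGR site, found for Nr4a1 and Fosb, was in 3.47% of entries, and the CArG box, found for Egr2, in 1.63%. Counted by gene over all its entries (27025 genes), these shares were 23.05% for the CRE core, 3.93% for the EGR site and 1.81% for the CArG box. The whole CRE (TGACGTCA), the AP-1 site (TGAGTCA or TGACTCA) and the NR4A site NBRE (AAAGGTCA) were in 1.79%, 5.2% and 1.51% of entries and in none of these members' windows. The Jun window held none of the motifs searched. These matches describe the letters of the window only.

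In saline mice, 5 of the 7 genes were lower in the hippocampus than in the neocortex, Jun was higher, and Junb did not pass the test. Signals are MAS5 values on a linear scale, and differences below are of log2(signal + 16) with their standard error (SE). A difference was called at a Benjamini-Hochberg adjusted p under 0.05 from limma over 8695 probe sets. At that threshold 10.5% of all probe sets differed between the saline regions and 5.19% were lower in the hippocampus.

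Egr1 read 7854 to 10799 in the saline neocortex (median 9413) and 3674 to 4739 in the saline hippocampus (median 4333). The hippocampal arrays all lay below the neocortical ones, a difference of -1.15 ± 0.12 SE (n = 6 and 6, limma adjusted p = 2.21e-09), or 2.21-fold. Egr2 read 598 to 1095 in the neocortex (median 737) and 158 to 477 in the hippocampus (median 347). Its groups did not overlap either, and the difference was -1.26 ± 0.22 SE (limma adjusted p = 9.8e-05). Nr4a1 read 2213 to 4046 in the neocortex (median 3165) and 1123 to 2094 in the hippocampus (median 1541), again without overlap. Its difference was -1.01 ± 0.19 SE (limma adjusted p = 1.72e-04), or 2.01-fold.

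Fos read 1154.5 to 2164 in the saline neocortex (median 1869) and 459.9 to 1220.4 in the hippocampus (median 837). The difference was -1.10 ± 0.29 SE (limma adjusted p = 0.00965), although the brightest hippocampal array lay above the dimmest neocortical one. Fosb read 1675 to 2192 in the neocortex and 1060.5 to 1505 in the hippocampus, with no overlap and a difference of -0.63 ± 0.13 SE (limma adjusted p = 7.78e-04). Junb read 1367 to 2514 in the neocortex and 1147 to 1734 in the hippocampus, and these ranges overlapped widely. Both Junb probe sets have names ending in a suffix that Affymetrix gave to sets outside its usual probe selection rules. Its difference was -0.29 ± 0.17 SE (limma adjusted p = 0.332), and its dimmer probe set gave -0.54 ± 0.27 SE (limma adjusted p = 0.24).

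Jun went the other way. It read 485 to 1105 in the saline neocortex (median 604) and 1567 to 1854 in the hippocampus (median 1698), with every hippocampal array above every neocortical one. The difference was 1.29 ± 0.18 SE (limma adjusted p = 1.07e-06), or 2.45-fold. The plot of signals by group shows Jun as the one gene of the 7 whose points are high on the right of its panel. In all, 5 of the 7 genes had groups that did not overlap, where 6.21% of all probe sets did. Both regions' arrays were treated as independent, since no label ties a hippocampus to the neocortex of the same mouse. In bulk tissue, fewer cells of a type and less RNA per cell cannot be told apart.

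**Figure D1:**
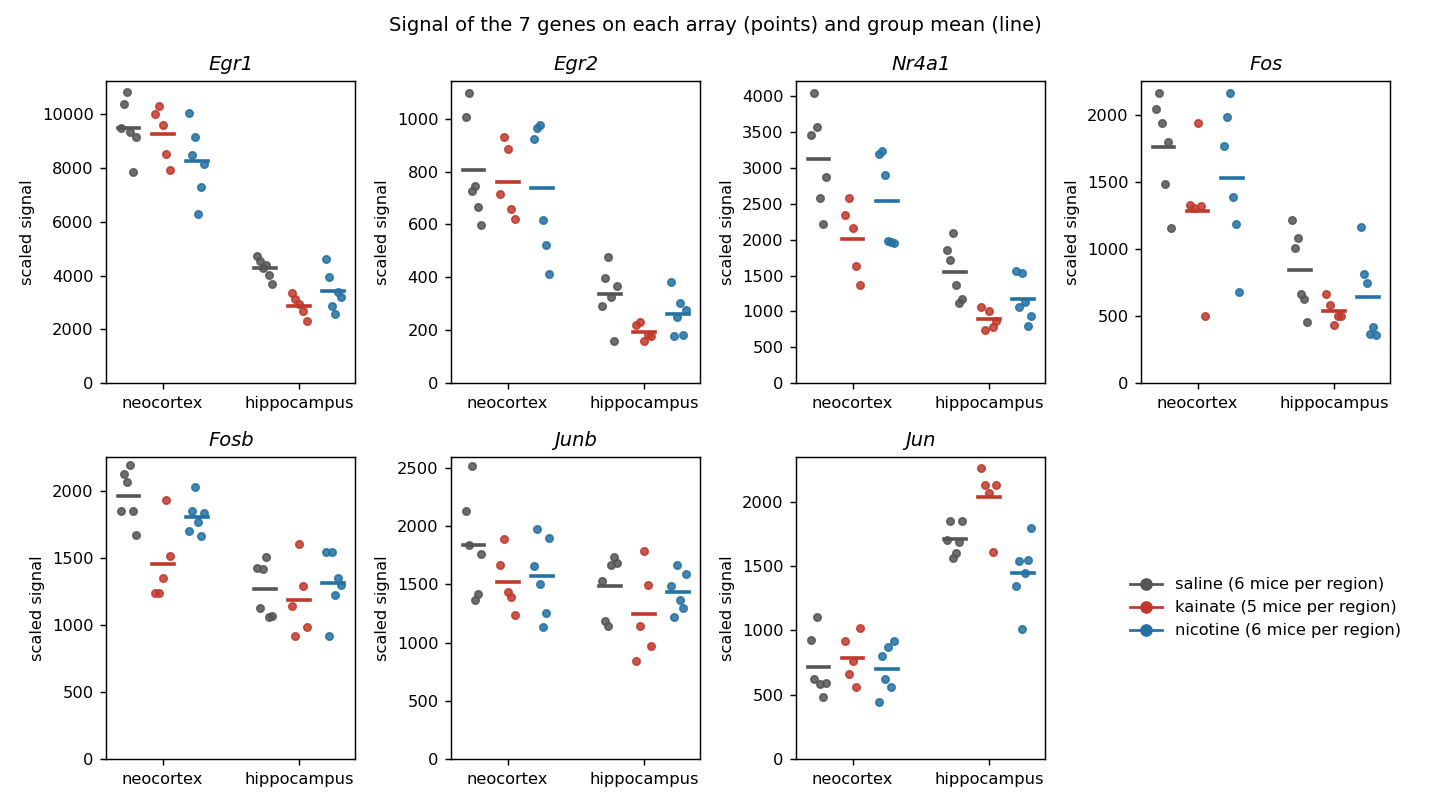
Scaled MAS5 signal (linear axis from 0) of the main probe set of each gene on each array, by region and treatment; points are mice, horizontal lines are group means. The 6 saline hippocampal arrays lie below the 6 saline neocortical arrays for Egr1, Egr2, Nr4a1 and Fosb and above them for Jun.

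The region labels were checked by cell type markers. Of 6 tested markers of dentate granule cells 3 were higher in the saline hippocampus (Dsp 2.81, Lct 2.41 and Prox1 1.62) and 1 was lower (Penk, -1.33). Of 7 tested excitatory neuron markers Neurod6 (1.30) and Neurod2 (0.78) were higher there, and Tbr1 (-1.46), Camk2a (-0.69) and Nrgn (-0.53) were lower. Related genes differed between the saline regions in both directions. Of 15 tested members of a list of other immediate early transcription factors (24 listed, 18 measured), 4 were lower in the hippocampus and 2 higher, with a list median of -0.09 against 0.00 for all probe sets. Lower were Ier2 (-0.87), Bhlhe40 (-0.65), Klf10 (-0.61) and Klf6 (-0.60). Higher were the C/EBP factors Cebpd (1.69) and Cebpb (0.76). Of 27 tested immediate early effectors, such as synaptic and secreted proteins, 7 were lower and 2 higher (list median -0.10). Ccn2, a secreted matricellular protein, differed by -1.32, the synaptic scaffold Homer1 by -1.18, the neuronal pentraxin Nptx2 by -0.99 and the prohormone convertase Pcsk1 by -0.99. Higher in the hippocampus were Rasd1, a Ras-like GTPase (1.72), and Errfi1, a feedback inhibitor of the EGF receptor (0.41).

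Of 22 tested upstream activators and cofactors, 5 were lower in the hippocampus and 2 higher, with a list median of -0.14. The activity-regulated transcription factor Mef2c differed by -2.18, the kinase Camk4, which phosphorylates CREB, by -1.09, and the Jun kinase Mapk9 by -0.85. Camk2a, given above with the excitatory neuron markers, is in this list too and was lower. Camk2b (0.67) and the calcineurin subunit Ppp3ca (0.45) were higher. Of 18 tested genes reported as AP-1 or EGR targets, 5 were higher and 3 lower (list median 0.05). Among these the neuropeptides Npy (-1.39), Penk (-1.33) and Tac1 (-0.79) were lower. Gfap of astrocytes (1.18), Nos1 (0.47) and the metallothioneins Mt1 (0.40) and Mt2 (0.39) were the 4 highest.

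On postnatal day 30 after kainate, Egr1 and Nr4a1 were lower in the hippocampus, and none of the 7 genes was called higher there. At the same threshold 2.79% of all probe sets were called in this comparison and 0.955% were lower. In all, 160 of the 243 called probe sets were higher, and 130 of 443 with each array centred on its median. Centring moved every difference of this comparison by 0.11 downward.

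Egr1 read 2300, 2698, 2937, 3136 and 3340 on the 5 kainate hippocampal arrays, against 3674 to 4739 with saline. All 5 lay below all 6 saline arrays. The difference was -0.57 ± 0.13 SE (95% interval -0.84 to -0.30, limma adjusted p = 0.0135), so the saline level was 1.49-fold the kainate level. Nr4a1 read 735, 782, 865, 1008 and 1056 after kainate, against 1123 to 2094 with saline, again without overlap. Its difference was -0.77 ± 0.19 SE (95% interval -1.16 to -0.38, limma adjusted p = 0.025), or 1.70-fold. These were the 2 genes of the 7 whose kainate arrays all lay below all saline arrays, where 1.18% of all probe sets did.

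Egr2 read 159.5, 178.7, 183, 219 and 232 after kainate, above the lowest saline array of 158 but below the other saline arrays. Its difference of -0.68 ± 0.26 SE had a limma adjusted p of 0.194. Fos read 437, 503, 504, 586 and 666 after kainate, overlapping the lower part of the saline range of 459.9 to 1220.4. Its difference of -0.57 ± 0.29 SE had a limma adjusted p of 0.383. Fosb (-0.11 ± 0.16 SE) and Junb (-0.29 ± 0.17 SE) did not pass either, with overlapping arrays. The dimmer Junb probe set gave -1.02 ± 0.32 SE (limma adjusted p = 0.0996). Jun read 1608, 2067, 2129, 2134 and 2261 after kainate and 1567 to 1854 with saline. All but 1 of its kainate arrays lay above the saline arrays, and its difference of 0.24 ± 0.12 SE had a limma adjusted p of 0.384.

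The arrays fell into 3 clusters per region by the signals of 9 bacterial control probe sets, whose RNA is spiked in by hand, and every treatment was present in each cluster. Within the clusters of the hippocampus, Egr1 differed by -0.50 (1 kainate and 1 saline array), -0.59 (3 and 3) and -0.73 (1 and 2). Nr4a1 differed by -0.80, -1.01 and -0.40 in the same clusters. With the cluster as a block the limma adjusted p was 0.00196 for Egr1 and 0.00132 for Nr4a1, where 339 of all probe sets were called. In the largest cluster alone, neither gene was called (adjusted p = 0.139 and 0.0538). The Egr1 call was lost without kainate replicate 5 (adjusted p = 0.0555). The Nr4a1 call was lost without saline replicate 1, 2 or 3 or kainate replicate 2, 4 or 5 (adjusted p from 0.0571 to 0.0703). Over all arrays left out in turn, the difference lay between -0.63 and -0.49 for Egr1 and between -0.85 and -0.68 for Nr4a1.

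**Figure D2:**
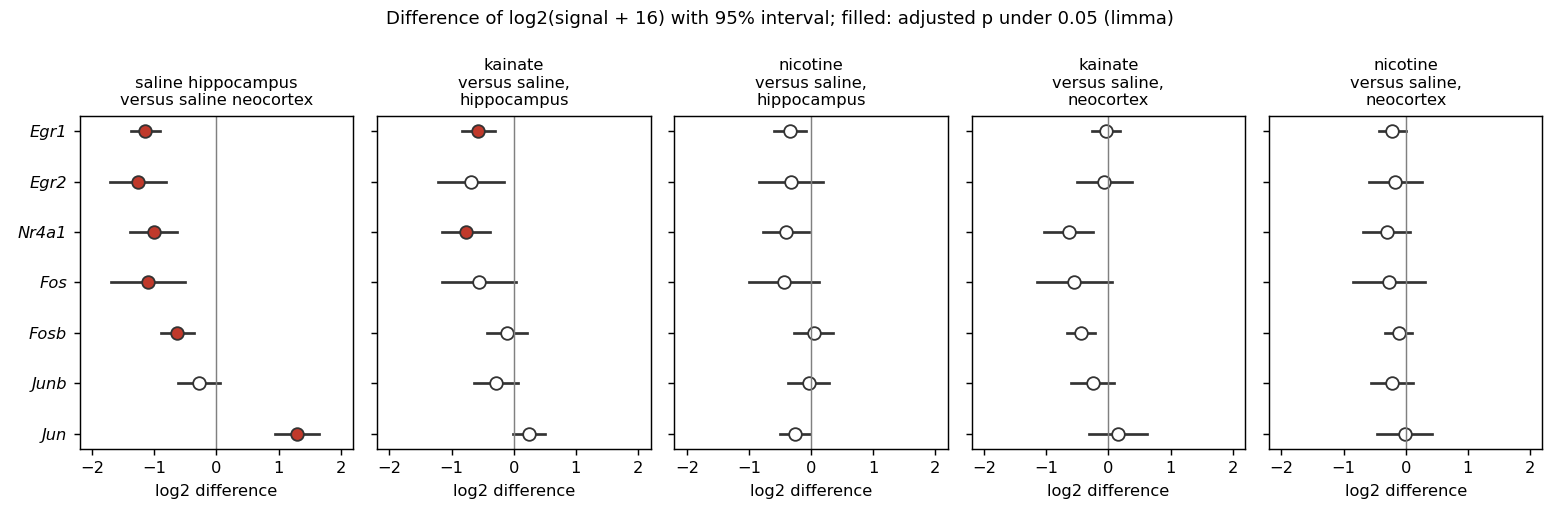
Difference of log2(signal + 16) of each gene (points) with its 95% interval (lines) from limma, in 5 comparisons; filled points have an adjusted p under 0.05. Filled are 6 points for the saline regions, those of Egr1 and Nr4a1 for kainate in the hippocampus, and none in the other 3 panels.

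Cell type markers moved in the same comparison. All 11 tested microglial and macrophage markers (12 listed) were higher in the hippocampus after kainate, with a median of 1.82, and their summed signal was 48868 to 77817 against 17496 to 20187 with saline. Of 7 tested astrocyte markers 3 were higher. Of 10 interneuron markers 3 were lower (Sst, Cort and Slc32a1), with summed signals of 23720 to 26611 against 29478 to 33815. Of 7 tested excitatory neuron markers none was called (median -0.29 against 0.01 for all probe sets), and their sums were 20374 to 24411 after kainate and 22009 to 32697 with saline. Array measures differed in this comparison as well. The array median was 403 to 438.5 after kainate and 381 to 391 with saline, without overlap, and the log2 Actb 3′ to 5′ ratio 0.25 to 0.49 against 0.44 to 0.67. The part of these shifts in the lower Egr1 and Nr4a1 signals was not tested, beyond the centring on array medians given above, with which the differences were -0.68 and -0.88.

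After kainate in the hippocampus, of 15 tested other immediate early transcription factors 0 were called by limma, and their median was -0.12. Of 26 immediate early effectors 1 was lower. This was Rasd1, whose mean fell from 1018 ± 96 (SD, n = 6) to 567 ± 92 (SD, n = 5), a difference of -0.84 ± 0.15 SE (limma adjusted p = 0.00137). Of 22 upstream activators and cofactors 0 were called (median -0.06). Of 18 reported AP-1 and EGR targets 4 were higher and 1 lower. Gfap differed by 2.23, the opioid precursor Penk by 0.87, Mt2 by 0.59 and Mt1 by 0.44, and the neuropeptide Cck by -0.50. Gfap and Penk also stand in the astrocyte and dentate granule cell marker lists.

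In the neocortex none of the 7 genes was called after kainate, where 0.0115% of all probe sets were called by limma, and Fosb and Nr4a1 were the 2 with an unadjusted p under 0.05. In all probe sets 484 (5.57%) had such a p. Fosb read 1236, 1239, 1350.3, 1517 and 1930.2 after kainate against 1675 to 2192 with saline, a difference of -0.44 ± 0.11 SE (limma adjusted p = 0.416). All but 1 of the kainate arrays lay below the saline arrays. Nr4a1 read 1362, 1629, 2159, 2341 and 2583 against 2213 to 4046, a difference of -0.64 ± 0.19 SE (limma adjusted p = 0.688). Within the neocortical control clusters it differed by -0.64 (3 and 3 arrays), -0.55 (1 and 2) and -1.07 (1 and 1). With the cluster as a block it was among the 6 probe sets called (-0.70, limma adjusted p = 0.000758).

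Egr1 differed by -0.04 ± 0.11 SE and Egr2 by -0.07 ± 0.21 SE in the neocortex after kainate, with intervals of -0.26 to 0.19 and -0.51 to 0.38. Fos differed by -0.55 ± 0.29 SE, and 1 kainate array stood low, at 499.9 where the others read 1308 to 1942. Junb differed by -0.25 ± 0.17 SE. Its dimmer probe set read 645 to 786.5 after kainate and 869 to 1856 with saline, with no overlap, a difference of -0.77 ± 0.20 SE and a limma adjusted p of 0.431. Jun differed by 0.15 ± 0.22 SE. The other immediate early transcription factors had 0 of 15 called by limma (median -0.17), and of the target list Gfap was the 1 gene called (1.07).

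The kainate difference in the hippocampus was set against that in the neocortex by an interaction term. None of the 7 genes was called by limma, where 0.794% of all probe sets were, 63 of 69 in the positive direction and 35 of 47 after median centring, which shifts this contrast by 0.10. At an unadjusted p under 0.05 stood 781 probe sets (8.98%) and 1 member, Egr1, with a difference of -0.54 ± 0.17 SE between the regions (95% interval -0.89 to -0.19, limma adjusted p = 0.212). Egr2 differed by -0.62 ± 0.33 SE, Fosb by 0.33 ± 0.19 SE and Nr4a1 by -0.13 ± 0.28 SE. For Fos (-0.02), Junb (-0.04) and Jun (0.09) the sign of this contrast changed under other settings.

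After nicotine no gene of the 7 was called in either region, and 0% of all probe sets were called in each. In the hippocampus limma gave 3 members an unadjusted p under 0.05, with 504 of all probe sets (5.8%). Egr1 read 2553 to 4596 after nicotine (median 3298), a difference of -0.34 ± 0.12 SE (95% interval -0.59 to -0.08). Nr4a1 read 793 to 1569 (median 1096), a difference of -0.41 ± 0.18 SE. Jun read 1008 to 1798 (median 1495), a difference of -0.26 ± 0.12 SE. Each of these 3 had a limma adjusted p of 0.851, and the nicotine and saline arrays overlapped. Fos differed by -0.44 ± 0.27 SE, Egr2 by -0.32 ± 0.24 SE, Junb by -0.04 ± 0.16 SE and Fosb by 0.04 ± 0.15 SE.

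In the nicotine neocortex the differences of the 7 genes ran from -0.31 ± 0.18 SE for Nr4a1 to -0.02 ± 0.21 SE for Jun, with limma adjusted p-values from 0.52 to 0.988. None had an unadjusted p under 0.05, where 9.6% of all probe sets had. Egr1 differed by -0.21 ± 0.10 SE and Fos by -0.27 ± 0.28 SE. The dimmer Junb probe set gave -0.68 ± 0.19 SE (limma adjusted p = 0.337). In neither region was any gene of the other immediate early transcription factors, effectors, activators or targets called by limma after nicotine. The interaction term of nicotine with region was called by limma for 0% of all probe sets and for none of the 7 genes, and at an unadjusted p under 0.05 for 328 probe sets and no member.

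Kainate and nicotine were also compared directly. In the hippocampus Jun was higher after kainate, and 2.42% of all probe sets were called. Jun read 1608 to 2261 after kainate and 1008 to 1798 after nicotine, with overlap at 1 kainate array. The difference was 0.50 ± 0.12 SE (95% interval 0.24 to 0.76, limma adjusted p = 0.0306), or 1.42-fold. Within the control clusters it was 0.74 (1 and 1 array), 0.54 (3 and 3) and 0.35 (1 and 2). The call was lost with median centring (adjusted p = 0.126), with all 34 arrays in the fit (0.179) or only the 2 groups (0.0865), in the largest cluster alone (0.4), with no variance trend (0.0542), and without kainate replicate 1, 2, 3 or 5 or nicotine replicate 1, 3 or 4 (0.0512 to 0.097). The other 6 genes were not called (adjusted p from 0.52 to 0.943). In the neocortex none of the 7 was called by limma, where 0.0345% of all probe sets were, and Fosb (-0.33 ± 0.11 SE) was the 1 member with an unadjusted p under 0.05, as 3.99% of all probe sets had. Both drug comparisons with saline share the same saline arrays, so their values are not independent.

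Between arrays of the same group, some of the 7 genes rose and fell together. Each array's deviation from its group mean was correlated between genes over the 17 arrays of a region. The 42 pairs (21 in each region) were tested by 100000 two-sided permutations of arrays within groups, with Benjamini-Hochberg adjustment over the 42. These permutations take the arrays of a group as exchangeable and do not keep the control clusters apart. The median r of the 21 pairs was 0.22 in the neocortex and 0.14 in the hippocampus. Over all pairs of tested probe sets the median was 0.00, and the 5th and 95th percentiles were -0.51 and 0.52 in the neocortex and -0.50 and 0.50 in the hippocampus. An r of 0.8 or more was reached by 0.172% of these pairs in the neocortex and 0.0961% in the hippocampus. That cutoff lies above the highest hippocampal pair of the 7 genes (0.74) and above several passing neocortical pairs. The lowest r among Egr1, Egr2, Nr4a1 and Fos was 0.46 in the neocortex and 0.15 in the hippocampus. At or above it stood 7.57% and 32.1% of all pairs of tested probe sets. The share of all pairs that would pass the permutation test was not computed.

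In the neocortex 6 pairs passed. Egr1 and Nr4a1 had r = 0.86 (permutation adjusted p = 0.00063) and rho = 0.84 (adjusted p = 0.00392), and Nr4a1 was the probe set most correlated with Egr1 of 8694 others. Other such ranks within the passing pairs ran from 3 (Egr1 for Nr4a1) to 350 (Nr4a1 for Fos). Egr2 and Nr4a1 had r = 0.81 (permutation adjusted p = 0.0139) and rho = 0.84 (adjusted p = 0.00357). Egr2 and Fos had r = 0.79 (permutation adjusted p = 0.00063) and rho = 0.86 (adjusted p = 0.00357). Egr1 and Junb (r = 0.73, rho = 0.73), Nr4a1 and Fos (r = 0.70, rho = 0.71) and Nr4a1 and Junb (r = 0.70, rho = 0.62) passed with permutation adjusted p-values of 0.0241, 0.0249 and 0.0293 for r. For rho these were 0.0341, 0.0485 and 0.0664, so Nr4a1 and Junb did not pass by rank. Egr1 and Egr2 passed by rank alone (rho = 0.71, permutation adjusted p = 0.0487). The r values were taken again without the 2 arrays farthest from the median of the first gene named in a pair. They lay between 0.62 and 0.89 for the 6 pairs that passed by r, and Egr1 and Egr2 had 0.58.

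In the hippocampus 2 pairs passed. Nr4a1 and Fos had r = 0.74 (permutation adjusted p = 0.0293) and rho = 0.73 (adjusted p = 0.0494). Egr1 and Fos had r = 0.70 (permutation adjusted p = 0.0293) and rho = 0.65 (adjusted p = 0.0631), so they did not pass by rank. Without the 2 arrays farthest from the median of the first gene named, the r of these 2 pairs was 0.66 and 0.50. Jun and Fosb, an AP-1 pair, had r = -0.46 in the hippocampus and -0.04 in the neocortex, and Jun and Fos had -0.32 and -0.25, none of which passed. Fosb and Junb had r = 0.46 in the hippocampus and -0.16 in the neocortex.

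These correlations were smaller within clusters of arrays alike in spiked-in control RNA. With the cluster means removed, the 6 neocortical pairs had r between 0.19 and 0.48 and the 2 hippocampal pairs 0.43 and 0.42. Within the largest cluster alone (9 arrays) the neocortical pairs ran from -0.54 (Nr4a1 and Fos) to 0.36 (Egr2 and Fos), and Egr1 and Fos of the hippocampus had 0.64, Nr4a1 and Fos 0.30. These values within clusters were not tested, and the relations are not shown to hold within them. In the plot of pair correlations every pair among Egr1, Egr2, Nr4a1 and Fos has a lower r with the cluster means removed, and some change sign, such as Egr1 and Nr4a1 in the hippocampus (0.31 and -0.28).

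**Figure D3:**
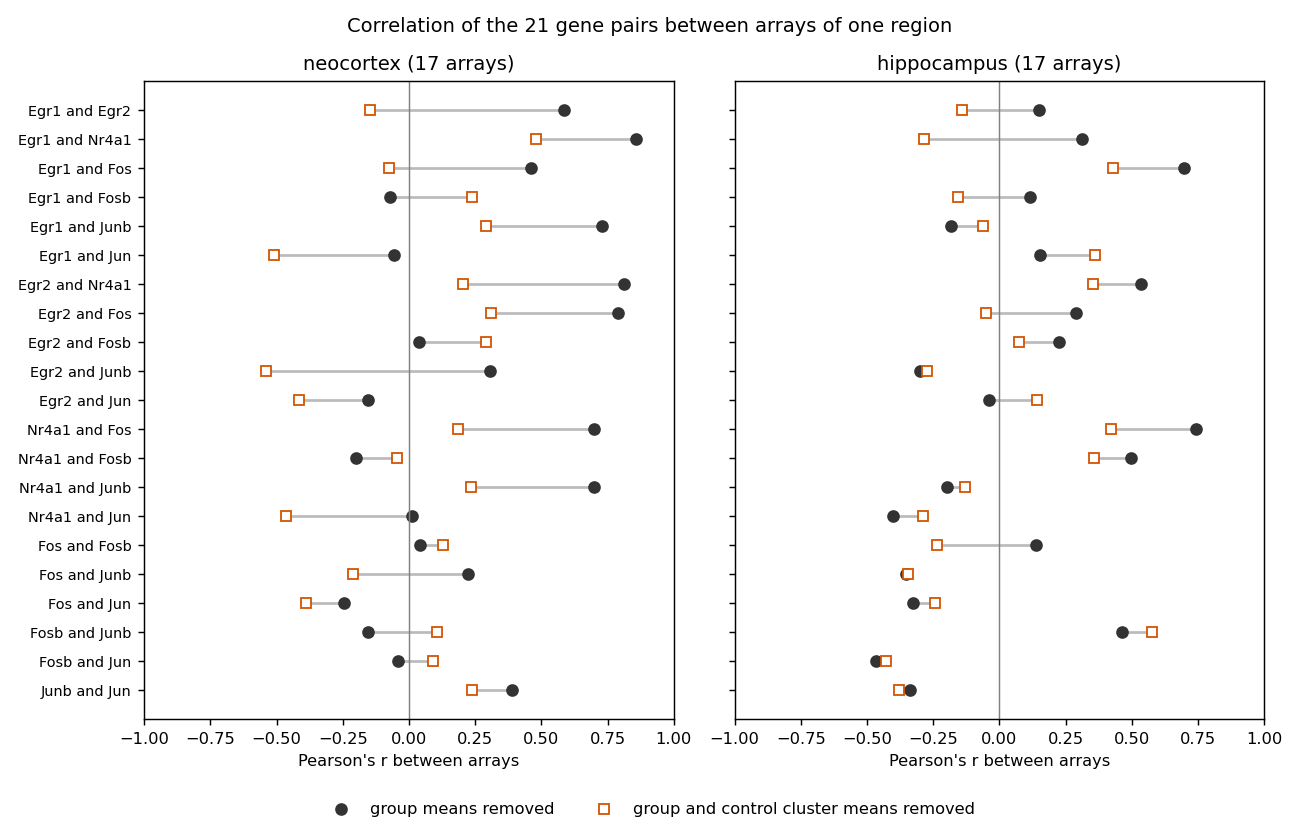
Pearson's r between arrays of one region (x axis) for each of the 21 gene pairs, from deviations from the group mean (filled circles) and with the means of the control clusters also removed (open squares). The highest circles, at 0.86 for Egr1 and Nr4a1 in the neocortex and 0.74 for Nr4a1 and Fos in the hippocampus, fall to 0.48 and 0.42.

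The deviations themselves show which arrays were high. In the neocortex the largest control cluster holds replicates 1, 2 and 3 of every treatment. In it Egr1, Nr4a1 and Fos lay above their group mean on 9 of 9 arrays, by 0.13, 0.29 and 0.35 on average, and Egr2 on 7 of 9. On the 5 arrays of the next cluster Egr1, Egr2 and Nr4a1 lay above their group mean on 0 arrays, and likewise on the 3 arrays of the last, in which Fos was lowest, by -0.95 on average. In the hippocampus the 3 arrays numbered 1 form a cluster, in which Egr1 (0.28), Nr4a1 (0.34) and Fos (0.63) were above the group mean on 3 of 3. On the 5 arrays of the cluster of replicates 5 and 6 Nr4a1 and Fos were above it on 0. What else these arrays share, such as a day of killing, dissection or hybridisation, is not given in the labels.

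**Figure D4:**
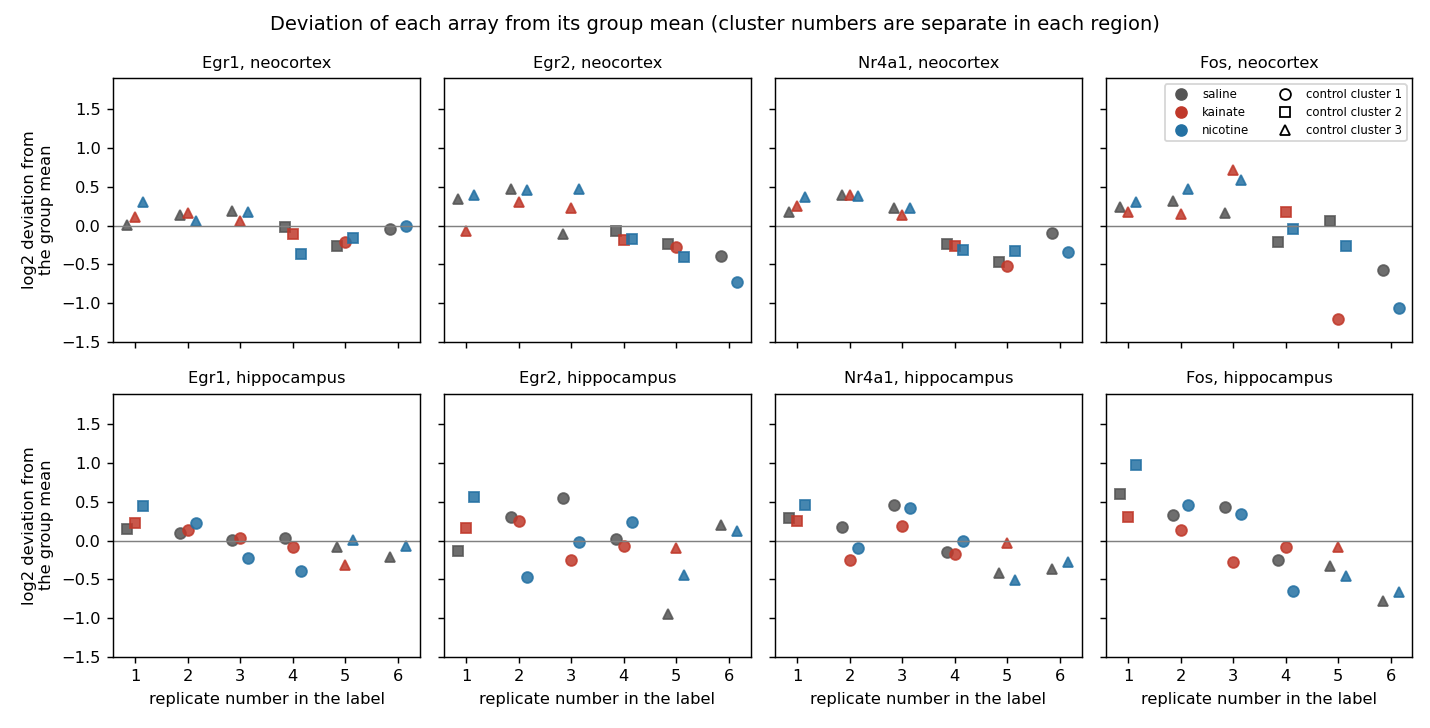
Deviation of log2(signal + 16) from the group mean (y axis) on each array by its replicate number (x axis), for Egr1, Egr2, Nr4a1 and Fos in both regions; colours are treatments and symbols the control clusters of that region. In the neocortex all arrays numbered 1 to 3 lie above 0 for Egr1, Nr4a1 and Fos.

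Other measures of the arrays moved with some genes. In the neocortex the deviation of the Gapdh 3′ to 5′ ratio, a sign of RNA integrity, had r = 0.56 with Egr1, 0.56 with Nr4a1 and 0.66 with Junb. In the hippocampus the array median had r = -0.76 with Jun, 0.61 with Junb and 0.55 with Fosb. The Actb 3′ to 5′ ratio there had r = -0.51 with Nr4a1 and -0.55 with Fos. These are descriptions over 17 arrays, and the part of these measures in the correlations between genes was not tested.

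Arrays with the same treatment and number were set side by side across regions, as a description, since a shared number is not stated to mean a shared mouse. Over 17 such pairs the deviations of Egr1 had r = 0.70 (rho = 0.64), of Nr4a1 0.62 (rho = 0.50) and of Fos 0.55 (rho = 0.67). Jun had 0.31, Fosb 0.26, Egr2 0.12 and Junb -0.30. With the control cluster means of each region removed, Egr1 had 0.47, and Nr4a1 (-0.52) and Fos (-0.21) were below 0.

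The genes most like the 7 were taken as those with the highest mean r with the members over both regions, among 7625 genes. Gadd45b, an activity-induced regulator of DNA demethylation and stress signalling, was first with a mean r of 0.41. Klf10, a zinc-finger factor of the immediate early class, was second with 0.38. With Egr1, Egr2, Nr4a1 and Fos, Gadd45b had r of 0.42 to 0.75 in the hippocampus and 0.59 to 0.72 in the neocortex. Klf10 had 0.24 to 0.72 and 0.66 to 0.81. Averaged over all 7 members, r was lower. In the hippocampus and the neocortex it was 0.29 and 0.53 for Gadd45b, and 0.33 and 0.44 for Klf10. Frmd6, Rnf149, Sel1l, Dusp8, Rora, Odf2, Mrps10 and Lgalsl followed, with mean r from 0.35 down to 0.33. These likenesses are descriptions over the 17 arrays of each region and share the clusters described above.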

How the data were processed

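Per the submitters' processing notes, the authors made the deposited values with MAS5, which gives 1 signal intensity per probe set on a linear scale. The 2% trimmed mean lay between 1000.53 and 1000.62 on every array, so the deposited intensities had been scaled. Array medians ran from 376 to 438.5, correlations between arrays from 0.916 to 0.969, and 0 pairs were identical. Detection calls were not used here. Precision depends on how many arrays each group holds.

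The 66 control probe sets were left out. Of the others, 10833 had 1 symbol, 396 several and 1193 none, and 10817 matched an Entrez identifier. Values were log2(signal + 16), which understates changes of dim genes. Probe sets below the 30th percentile were left out (8695 tested), which removed the dimmer probe sets of Egr1 and Fos and no main probe set. limma 3.58.1 in R 4.3.3 (eBayes with trend) tested treatments on the 17 arrays of a region and regions or interactions on all 34. All 7 members were named, and of each list at most the 4 highest and 4 lowest called genes. Control clusters are 3 per region, or 3 over all 34 arrays where regions were compared, from average linkage of 9 spiked-in probe sets. Data were also simulated with the mean and spread of each probe set in the hippocampus, but with independent noise and no control clusters. In these, for kainate against saline (8695 probe sets), 24.2% of changes of 0.5 and 70.8% of changes of 1 (log2) were recovered. Promoter entries were searched in Python 3.11.15. The members and lists were chosen with earlier results of these data known. A p-value here reflects variation among biological replicates, arrays included, and outside the fits by cluster does not account for the control clusters.

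Replicate numbers were checked as pairs. Between treatments of a region 15 of 32 same-numbered pairs had a correlation of deviations over 0.1 (-0.17 to 0.28), and between regions 2 of 17. For kainate and nicotine in the hippocampus all 5 did, and the block there left the Jun call in place.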

Additional observations from a re-analysis of the deposited data

Results flagged for a closer look

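One group of the 42 tested (7 genes in 6 groups) had an array far from the rest. Jun in the kainate hippocampus read 1607.8 on replicate 4, where the others read 2067 to 2261, a gap of 0.737 of the group's range. Chance alone sets about 1 in 20 groups apart in this way.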

How the results depend on the processing

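The alternatives tried were other pseudocounts, filters and normalizations, array weights, no variance trend, the control cluster as a block or its largest cluster alone, other sets of arrays in the fit, the next brightest probe set, and each array left out in turn. In the saline regions 6 members were called in all of them, except the next brightest probe set (4), which leaves Egr1 and Fos untested. For kainate against saline in the hippocampus 2 members were called, 0 in the largest cluster (fewer arrays), 1 with the next brightest probe set and 0 to 2 with an array left out, and over all probe sets 243, with 443 after median centring and 54 in the largest cluster. For kainate against nicotine there the 1 call became 0 with median centring, the largest cluster, no variance trend, all 34 arrays or only the 2 groups, and 0 to 1 with an array left out, and the cause was not tested. For kainate against saline in the neocortex the cluster block gave 1 call (Nr4a1), among 6 over all probe sets. The median r of pairs fell to -0.129 in the hippocampus and of same-numbered arrays to -0.146 with cluster means removed, and was 0.48 over the saline neocortex alone.

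Replicate numbers are not stated in the labels to pair these samples. Within a region, same-numbered arrays of different treatments mostly shared a control cluster. All 5 same-numbered pairs of kainate and nicotine in the hippocampus had a correlation of deviations over 0.1. With the replicate block, kainate against saline gave 3 calls in the hippocampus (Fos too, -0.71, limma adjusted p = 0.0331) and 1 in the neocortex (Nr4a1), and the kainate difference between regions gave 1 (Egr1, limma adjusted p = 0.0204), as did the number across regions and treatments (1, adjusted p = 0.0276, chosen after seeing the data). The other counts of called members did not change. With the number means removed the median r in the neocortex was -0.0203, and Egr2 in kainate against nicotine there was -0.0083.

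Some uncalled differences changed sign. In the largest cluster Junb was 0.14, 0.098 and 0.0451 in the hippocampus (kainate and nicotine against saline, kainate against nicotine), Fosb -0.16 (nicotine) and 0.042 (kainate against nicotine), Jun -0.15 (kainate, neocortex), Egr2 0.037 (nicotine, neocortex) and -0.18 (kainate against nicotine, neocortex), and between regions, with clusters formed over both regions' arrays jointly, Junb 0.22 (kainate) and Jun 0.26 (nicotine). Median centring gave Fosb -0.0196 (nicotine, hippocampus) and Jun -0.0108 (kainate between regions). Array weights gave Fosb -0.00914 (nicotine, hippocampus), Egr1 0.031 (kainate, neocortex) and Junb 0.0965 (kainate against nicotine, neocortex), and the cluster block Junb 0.018 (kainate between regions). With an array left out the ranges were, in the hippocampus, -0.0065 to 0.14 for Fosb and -0.11 to 0.0075 for Junb (nicotine) and -0.26 to 0.067 for Fos (kainate against nicotine). In the neocortex they were -0.088 to 0.019 for Egr1 and -0.14 to 0.028 for Egr2 (kainate), -0.12 to 0.12 for Jun (nicotine), and -0.043 to 0.20 for Egr2, -0.49 to 0.026 for Fos and -0.12 to 0.042 for Junb (kainate against nicotine). For kainate between regions they were -0.32 to 0.16 for Fos, -0.18 to 0.090 for Junb and -0.044 to 0.19 for Jun. The number of arrays limits what can be called.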
